A study of Caenorhabditis elegans with 12 samples.

Results

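The genes described here make, elongate, activate, carry and esterify fatty acids in the nematode Caenorhabditis elegans. They were chosen by name: every gene called elo-, acs-, lbp-, far-, dgat- or acl- with a number, together with pod-2, fasn-1 and sbp-1, that reached 1 FPKM (fragments per kilobase of gene and per M of mapped fragments, M standing for mega, so a level corrected for gene length) in at least 3 of 12 libraries. The deposited tables list 20257 genes, 64 of them carry such a name, and 62 met the level, out of 13614 genes of the whole series that did. The 62 members are 20 acyl-CoA synthetases (acs), 14 acyltransferases (13 acl genes and dgat-2), 9 lipid binding proteins (lbp), 8 elongases (elo), 8 fatty acid and retinol binding proteins (far) and 3 genes of synthesis and its regulation. Whole adult worms were compared in 4 groups of 3 libraries: the mutant glp-1(e2141) at day 6 of adulthood (D6), wild type N2 at D6, glp-1(e2141) at day 1 (D1) and wild type N2 at D1. The allele glp-1(e2141) is a temperature-sensitive change in a Notch receptor that germline stem cells require, and at 25 °C the adults form almost no germline. All 4 groups were raised at 25 °C to D1 on OP50 bacteria, so the controls went through the warm temperature too. The D6 animals were then kept cooler, at 20 °C by the series' design text, while the labels give 20, 21 and 22 °C for replicates 1, 2 and 3 of both genotypes. Each difference between D6 and D1 is therefore also a difference in temperature, and age and temperature cannot be told apart. The labels do not state whether libraries of a group derive from different cultures, and if they do not, the p-values reflect technical spread only.

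Fatty acid synthesis starts with acetyl-CoA carboxylase (POD-2) and fatty acid synthase (FASN-1), and their genes are controlled by SBP-1, the worm's sterol regulatory element binding protein. Elongases add carbon units to fatty acids that are bound to coenzyme A, some on straight chains and some on the branched chains that the worm makes itself. Acyl-CoA synthetases activate free fatty acids, a step needed before they can be burned, elongated or built into lipids. LBP proteins carry fatty acids within cells or, where they hold a signal peptide, outside them. FAR proteins, many of them secreted, are carriers known only from nematodes. Acyltransferases place the activated chains on glycerol, and diacylglycerol acyltransferases such as DGAT-2 make triglyceride, the storage fat. The intestine is the worm's main site of fat synthesis and storage, and it also supplies yolk lipid to growing oocytes.

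Estimated depth was similar in all libraries, between 17.8 M and 20.1 M fragments. The glp-1 transcript was at 5.44 to 6.69 FPKM in glp-1 and 96.9 to 99.3 FPKM in WT at D6, and at 3.21 to 3.39 FPKM in glp-1 and 64.4 to 68.7 FPKM in WT at D1. The 16 markers of germline and oocytes summed to 21.4 to 132 FPKM in glp-1 and 11976 to 12857 FPKM in WT at D6, and to 10.6 to 11.8 FPKM in glp-1 and 9656 to 9962 FPKM in WT at D1. Among the glp-1 libraries at D6, library 2 had the lowest such sum, 21.4 FPKM, against 132 FPKM in library 1 and 81.8 FPKM in library 3, and for that reason results were also computed with library 2 alone for that group. All 15 intestine markers were at 1 FPKM or more in every library, and their sum was 7257 to 8231 FPKM in glp-1 and 2478 to 2812 FPKM in WT at D6, and 4824 to 6310 FPKM in glp-1 and 2374 to 3879 FPKM in WT at D1. FPKM is a share of the RNA sequenced, and in whole worms fewer cells of a type and less RNA per cell cannot be told apart. Each comparison was therefore also made after scaling the libraries to the median of the body wall muscle and neuron markers, to the median of the intestine markers, and by the median ratio over all genes. By their medians the 20 muscle and 21 neuron markers were both higher in glp-1, but not equally, with log2 differences of 2.05 and 1.47 at D6, muscle first. At D1 these were 1.42 and 0.96. They parted more with age, with median log2 changes of -1.17 and 0.20 in glp-1 and of -1.76 and -0.087 in WT, in the same order. Changes on their pooled scale therefore average tissues that differ, most of all with age. With the deposited scale the median log2 difference of all genes tested was -0.03 for glp-1 against WT at D6, and it moved to -0.93 with the muscle and neuron scaling and to -1.84 with the intestine scaling. At D1 the medians were -0.15 as deposited, -0.85 and -1.21 in the same order. For D6 against D1 they were 0.20, 0.37 and 0.32 in glp-1 and 0.13, 0.76 and 1.32 in WT. Differences below are on the log2(FPKM + 1) scale with FPKM as deposited, from limma fitted over all genes tested, and called means a Benjamini-Hochberg adjusted p under 0.05 over those genes.

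The 62 members took a larger share of the sequenced RNA in glp-1 than in WT at both ages, and their summed level was higher at D6 than at D1 in glp-1 but lower at D6 in WT, on FPKM as deposited. The sum was 26847 ± 963 FPKM in glp-1 and 7979.6 ± 207 FPKM in WT at D6, and 21592 ± 1196 FPKM in glp-1 and 10391 ± 254 FPKM in WT at D1 (SD, n = 3 each). That is 3.41% of all FPKM in glp-1 and 0.919% in WT at D6, and 2.65% in glp-1 and 1.22% in WT at D1. FAR genes held most of it, with 20959.5 ± 833 FPKM in glp-1 and 3978 ± 143 FPKM in WT at D6, and 14449 ± 1345 FPKM in glp-1 and 5149 ± 358 FPKM in WT at D1. The other classes summed to far less, as the plot of summed levels by class shows. far-2 alone makes up much of the sum, and its change with age in WT was -0.52 as deposited, 0.19 relative to muscle and neurons and 0.79 relative to intestine. Its rise in glp-1 was not called with the median-ratio scaling. The sum itself was not computed under the other scalings, so its opposite directions are given for FPKM as deposited only.

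**Figure D1:**
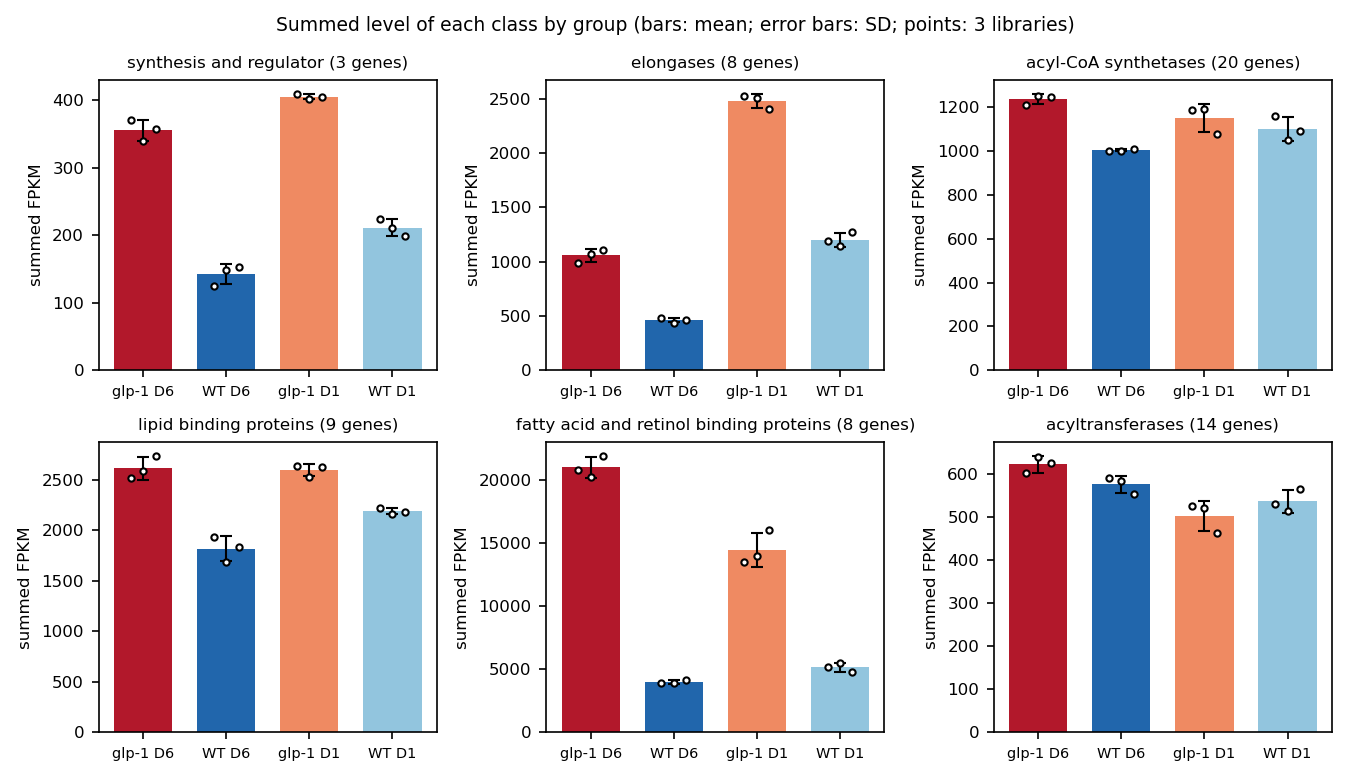
Summed FPKM of the 6 classes in each group, with bars for the mean, error bars for the SD and points for the 3 libraries. The FAR genes reach 20959.5 FPKM in glp-1 and 3978 FPKM in WT at D6, while the elongases are at 1057 FPKM in glp-1 at D6 and 2481 FPKM in glp-1 at D1, against 459.5 FPKM in WT at D6 and 1202 FPKM in WT at D1.

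At D6, 39 members were higher in glp-1 than in WT, 15 were lower and 8 were not called. Of all genes tested at D6, 89.8% were called, 44.4% higher and 45.4% lower, so being called was common. Their median log2 difference was 1.22, beside -0.03 for all genes tested. At D1, 37 members were higher in glp-1, 18 were lower and 7 were not called, beside 89.4% of all genes called, 41.3% higher and 48.1% lower. The median of the members was 0.79 and that of all genes -0.15. Between D1 and D6 in glp-1, 21 members rose and 23 fell, beside 54.7% of all genes called, 39.1% higher and 15.6% lower. In WT over the same days 12 rose and 32 fell, beside 57.7% of all genes called, 35.1% higher and 22.7% lower. The change with age was more positive in glp-1 than in WT for 35 members and more negative for 7, by the interaction test, which called 47.5% of all genes, 30.9% in the first direction and 16.6% in the second. In all, 4 of the members, acs-10, acs-18, acl-13 and elo-8, reached 1 FPKM only in WT at D1 and so entered the list through the group where they were high. Without them 39 of 58 members were higher and 14 lower in glp-1 at D6, and 37 were higher and 14 lower at D1. With age 20 of the 58 rose and 23 fell in glp-1, and 12 rose and 28 fell in WT. The interaction was positive in 31 of the 58 and negative in 7.

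Many of the members that were higher in glp-1 were not higher under the other scalings. Both tissue scalings lower all glp-1 values relative to WT, so members lower as deposited stay lower under them by construction, and only the higher members are put to a test. Of the 39 higher at D6, 8 were higher under all 3, namely acs-1, acs-12, acs-17, acs-22, acl-12, dgat-2, far-3 and far-5. Of the 37 higher at D1, 9 were higher under all 3, namely acs-1, acs-12, acl-12, dgat-2, far-3, far-5, far-7, lbp-5 and sbp-1. With the muscle and neuron scaling 29 members were higher and 23 lower at D6, and 21 higher and 27 lower at D1. With the intestine scaling 8 were higher and 35 lower at D6, and 9 higher and 35 lower at D1, so most members that were higher as a share of all RNA were not higher relative to intestine markers. The same scalings changed the share of higher calls among all called genes, which was 49.5% as deposited, 32.6% with muscle and neurons and 8.93% with intestine at D6, and 46.2%, 27.6% and 12.6% in the same order at D1.

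**Figure D2:**
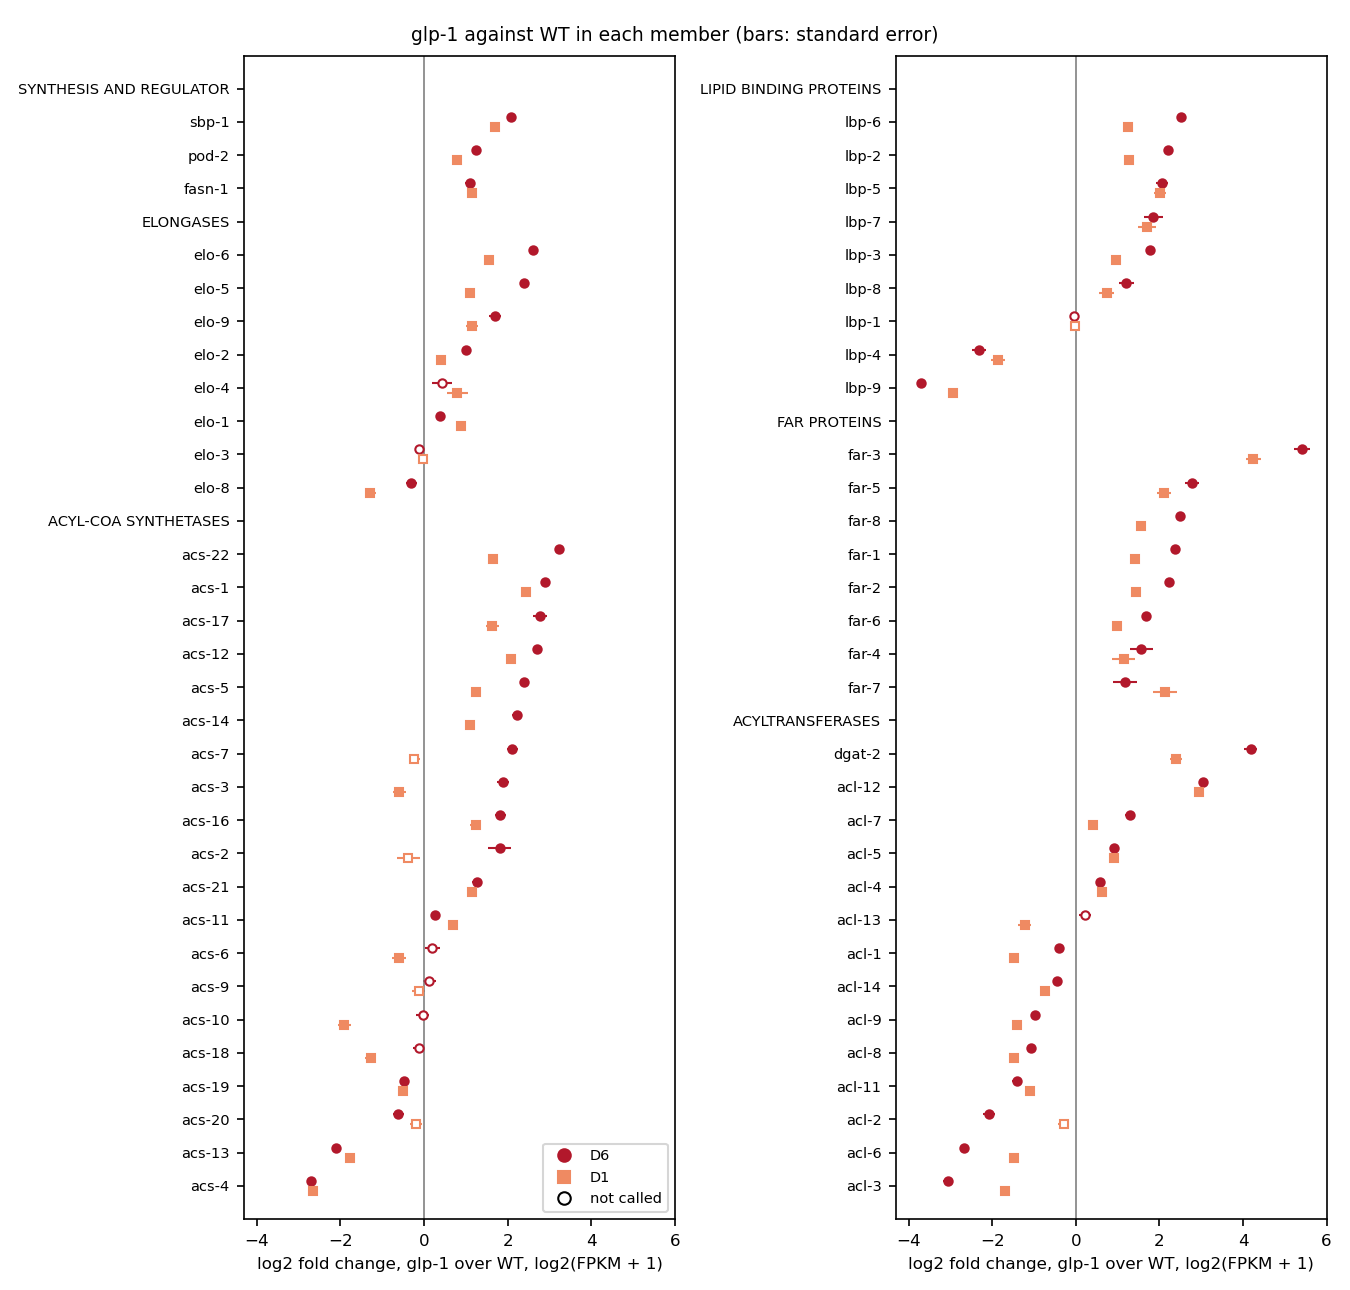
The log2 fold change of glp-1 over WT for each of the 62 members by class, at D6 (red circles) and D1 (orange squares), with bars for the standard error and open symbols where adjusted p was 0.05 or more. The 8 FAR genes all lie right of 0 at both ages, far-3 farthest at 5.41 at D6, and lbp-9 lies farthest left at -3.70, on FPKM as deposited. With the intestine scaling 2 FAR genes were higher and 2 lower at D6, and 3 were higher and 1 lower at D1, where most called genes of the whole series were lower.

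The 3 genes of synthesis and its regulation were all higher in glp-1 at both ages, beside 44.4% of all genes at D6 and 41.3% at D1. Scaled to muscle and neurons, 1 of the 3 was higher at D6 and 2 at D1, and scaled to intestine all 3 were lower at D6, while at D1 1 was higher and 1 lower. Most called genes of the whole series were also lower in glp-1 under both scalings. sbp-1, the regulator, lies on chromosome III, bases 11428367 to 11442566, of genome build WBcel235, the build of all positions given here. It had 54.8, 56.2 and 61.9 FPKM in the glp-1 libraries at D6 and 12.5, 13.01 and 12.8 FPKM in WT at D6. At D1 sbp-1 had 46.1, 46.4 and 43.2 FPKM in glp-1 and 12.9, 13.1 and 13.7 FPKM in WT. The groups of the 2 genotypes did not overlap at either age, and the WT values of both ages lay together. Its log2 fold change was 2.09 (SE 0.07, adjusted p = 4.1e-12) at D6 and 1.698 (SE 0.07, adjusted p = 4e-11) at D1. Its level rose with age in glp-1 by 0.34 on the log2 scale, a rise not called with the median-ratio scaling (0.16, adjusted p = 0.062), and the change in WT was -0.047 and not called.

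fasn-1, the fatty acid synthase, had 77.1, 76.9 and 75.1 FPKM in the glp-1 libraries at D6 and 27.9, 40.6 and 38.3 FPKM in WT at D6. At D1 fasn-1 had 86.5, 81.3 and 79.99 FPKM in glp-1 and 37.3, 38.8 and 33.7 FPKM in WT. Every glp-1 value was above every WT value, and the ages overlapped in WT. The genotype difference was 1.099 (SE 0.11, adjusted p = 4.8e-07) at D6 and 1.15 (SE 0.11, adjusted p = 3.3e-07) at D1, and neither change with age was called as deposited. Relative to muscle and neurons it was -0.22 at D6 and 0.25 at D1, and relative to intestine -1.34 and -0.24. pod-2, the acetyl-CoA carboxylase that supplies malonyl-CoA to both synthase and elongases, had 238, 206 and 221 FPKM in the glp-1 libraries at D6 and 84.6, 94.8 and 101 FPKM in WT at D6. At D1 pod-2 had 277, 274 and 281 FPKM in glp-1 and 174, 158 and 152 FPKM in WT. The WT libraries at D6 were the lowest and the glp-1 libraries at D1 the highest, with no overlap between any of the 4 groups. It was higher in glp-1 by 1.24 (SE 0.08, adjusted p = 2.5e-09) at D6 and 0.78 (SE 0.08, adjusted p = 4.3e-07) at D1, and fell with age by 0.33 in glp-1 and by 0.78 in WT. With the muscle and neuron scaling its genotype differences were -0.101 at D6 and -0.13 at D1.

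Elongase transcripts fell between D1 and D6 in both genotypes. The counts in this paragraph leave out elo-8, which reached 1 FPKM only in WT at D1, so that its fall in WT and its lower level in glp-1 were set by that limit. Of the other 7 members all fell in glp-1 and 6 in WT, beside 15.6% and 22.7% of all genes, and none rose. In WT, though, 1 rose and 4 fell after scaling to muscle and neurons, and 2 rose and 4 fell after scaling to intestine. In glp-1 both scalings left 5 that fell and none that rose, and elo-2, elo-5, elo-6 and elo-9 fell in both genotypes under all 3 other scalings. The summed level was 1057 ± 62.5 FPKM in glp-1 and 459.5 ± 19.6 FPKM in WT at D6, and 2481 ± 65.8 FPKM in glp-1 and 1202 ± 63.8 FPKM in WT at D1 (SD, n = 3 each). In glp-1 against WT, 5 were higher and none lower at D6, and 6 higher and none lower at D1, whereas scaled to intestine none was higher and 4 were lower at each age. Scaled to muscle and neurons 3 were higher and 3 lower at D6, and 1 higher and 2 lower at D1. As deposited, 44.4% of all genes were higher and 45.4% lower at D6, and 41.3% and 48.1% at D1. Under both tissue scalings most called genes of the whole series were lower too.

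elo-6 makes branched-chain fatty acids, together with elo-5 of the same gene cluster. It lies on chromosome IV, bases 5386629 to 5388559, and had 377, 373 and 404 FPKM in the glp-1 libraries at D6 and 72.7, 54.2 and 62.9 FPKM in WT at D6. At D1 elo-6 had 1127, 1113 and 1086 FPKM in glp-1 and 363, 354 and 423 FPKM in WT. The WT libraries at D6 were the lowest, the glp-1 libraries at D1 the highest, and the glp-1 libraries at D6 overlapped the WT libraries at D1. The change with age was -1.53 (SE 0.10, adjusted p = 3.7e-08) in glp-1 and -2.57 (SE 0.10, adjusted p = 5.9e-10) in WT. The log2 fold change of glp-1 over WT was 2.59 (SE 0.10, adjusted p = 1.1e-11) at D6 and 1.55 (SE 0.10, adjusted p = 3.1e-09) at D1. With the intestine scaling the genotype differences were 0.14 and 0.13, neither of them called. elo-5 averaged 200.3 ± 20.03 FPKM in glp-1 and 37.2 ± 3.85 FPKM in WT at D6, and 349 ± 21.2 FPKM in glp-1 and 164 ± 16.8 FPKM in WT at D1.

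elo-2, which elongates palmitic acid, had 77.3, 72.98 and 85.9 FPKM in the glp-1 libraries at D6 and 41.1, 38.1 and 37.1 FPKM in WT at D6. At D1 elo-2 had 303, 291 and 271 FPKM in glp-1 and 224, 205 and 224 FPKM in WT. Both genotypes lay far lower at D6 than at D1, and the 4 groups did not overlap. It fell with age by 1.86 (SE 0.07) in glp-1 and by 2.46 (SE 0.07) in WT, adjusted p = 7e-10 and 1.5e-10. Its genotype difference was 1.001 (SE 0.07, adjusted p = 1.3e-08) at D6 and 0.405 (SE 0.07, adjusted p = 0.00014) at D1, and relative to muscle and neurons it was -0.32 and -0.51. elo-1, the elongase of polyunsaturated fatty acids, had 278, 333 and 313 FPKM in the glp-1 libraries at D6 and 238, 229 and 245 FPKM in WT at D6. At D1 elo-1 had 610.2, 633 and 609 FPKM in glp-1 and 352, 326 and 323 FPKM in WT. The glp-1 libraries at D1 stood above all others, and the glp-1 libraries at D6 overlapped the WT libraries at D1. Its fall with age was -1.005 (SE 0.07, adjusted p = 7.1e-08) in glp-1 and -0.49 (SE 0.07, adjusted p = 5.6e-05) in WT, so it was steeper in glp-1, by -0.52 (SE 0.10, adjusted p = 0.00079). Scaled to muscle and neurons the change of elo-1 in WT was 0.22. elo-3 stayed between 64.1 and 106 FPKM in all 12 libraries and was not called between genotypes at either age.

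Acyl-CoA synthetases moved both ways. In glp-1 against WT, 12 of 20 (60%) were higher and 4 (20%) lower at D6, beside 44.4% and 45.4% of all genes. At D1 9 (45%) were higher and 7 (35%) lower, beside 41.3% and 48.1% of all genes. Scaled to muscle and neurons 10 were higher and 6 lower at D6, and 7 higher and 11 lower at D1, and scaled to intestine 4 were higher and 8 lower at D6, and 2 higher and 12 lower at D1. Under either scaling most called genes of the whole series were lower in glp-1. With age, 6 (30%) rose and 4 (20%) fell in glp-1, beside 39.1% and 15.6% of all genes. In WT 2 (10%) rose and 11 (55%) fell, beside 35.1% and 22.7% of all genes, and scaled to muscle and neurons 8 rose and 7 fell. The interaction was positive in 13 (65%) and negative in 2 (10%) as deposited, beside 30.9% and 16.6% of all genes. It was positive in 10 and negative in 4 with muscle and neurons, and in 7 and 7 with intestine. Among all genes most called interactions were negative under both scalings. The counts of falls in WT, of lower levels in glp-1 at D1 and of positive interactions include acs-10 and acs-18, which reached 1 FPKM only in WT at D1. They also include acs-6, which reached 1 FPKM in every WT library at D1 and elsewhere only in glp-1 library 3 at D1.

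acs-22 and acs-20 are homologues of mammalian fatty acid transport proteins and act in the barrier of the body surface. acs-22, on chromosome X, bases 8931179 to 8939263, had 249, 292 and 259 FPKM in the glp-1 libraries at D6 and 27.01, 28.9 and 26.01 FPKM in WT at D6. At D1 acs-22 had 168, 170.2 and 148 FPKM in glp-1 and 52.5, 47.6 and 52.7 FPKM in WT. Each glp-1 library was above each WT library at both ages, and the 2 genotypes moved apart with age. It rose in glp-1 by 0.72 (SE 0.08, adjusted p = 6e-06), and its change in WT was -0.87 (SE 0.08, adjusted p = 1.3e-06). Between genotypes it differed by 3.24 (SE 0.08, adjusted p = 3.3e-13) at D6 and 1.65 (SE 0.08, adjusted p = 1.8e-10) at D1, and relative to intestine it was 0.800 at D6 and 0.24 at D1, the second not called. The decline in WT was -0.18 relative to muscle and neurons and 0.402 relative to intestine, while the interaction was positive and called under every scaling. acs-20 was at 4.63 to 5.14 FPKM in glp-1 and 6.39 to 8.87 FPKM in WT at D6, and was not called at D1.

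acs-1, which activates an iso-branched fatty acid, had 261, 277 and 275 FPKM in the glp-1 libraries at D6 and 37.8, 33.5 and 35.8 FPKM in WT at D6. At D1 acs-1 had 338, 372 and 306 FPKM in glp-1 and 57.3, 64.4 and 64.01 FPKM in WT. All glp-1 libraries lay above all WT libraries, and the difference was 2.89 (SE 0.08, adjusted p = 6.3e-13) at D6 and 2.43 (SE 0.08, adjusted p = 3.5e-12) at D1, higher under each scaling. It fell with age by 0.31 in glp-1 and by 0.78 in WT, and the fall in glp-1 was not called when library 2 alone stood for glp-1 at D6 (adjusted p = 0.069). acs-14 had 90.1, 108 and 107 FPKM in the glp-1 libraries at D6 and 21.9, 22.6 and 18.8 FPKM in WT at D6. At D1 acs-14 had 69.6, 64.1 and 66.5 FPKM in glp-1 and 32.5, 25.9 and 33.2 FPKM in WT. The groups did not overlap. It rose with age in glp-1 by 0.597 (SE 0.10, adjusted p = 0.00035) and fell in WT, at -0.51 (SE 0.10, adjusted p = 0.0012), but its WT change was 0.18 relative to muscle and neurons. acs-4, a homologue of mammalian long-chain acyl-CoA synthetases, had 30.9, 26.8 and 32.7 FPKM in the glp-1 libraries at D6 and 197, 209 and 202 FPKM in WT at D6. At D1 acs-4 had 27.03, 29.6 and 27.9 FPKM in glp-1 and 188, 176 and 188 FPKM in WT. Its glp-1 libraries lay far below its WT libraries at both ages, with a difference of -2.72 (SE 0.07, adjusted p = 6e-13) at D6 and -2.67 (SE 0.07, adjusted p = 9.4e-13) at D1. acs-13 had 88.2, 93.2 and 90.3 FPKM in the glp-1 libraries at D6 and 385, 377 and 415 FPKM in WT at D6. At D1 acs-13 had 109, 107 and 98.4 FPKM in glp-1 and 378, 347 and 356 FPKM in WT. It differed by -2.10 (SE 0.06) at D6 and by -1.77 (SE 0.06) at D1, adjusted p = 1.2e-12 and 7.2e-12, with no overlap. The summed germline markers were at 132 FPKM or less in glp-1, and the part of germline RNA in the lower level of acs-4 and acs-13 was not tested.

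Among the synthetases, acs-2, acs-3 and acs-7 were higher in glp-1 at D6 without being higher at D1, on FPKM as deposited. Relative to intestine markers none of them was called higher at D6. acs-7 has been linked to the side chains of ascarosides, the worm's pheromones. It had 10.4, 11.2 and 11.4 FPKM in the glp-1 libraries at D6 and 2.12, 1.71 and 1.53 FPKM in WT at D6. At D1 acs-7 had 11.9, 10.1 and 11.3 FPKM in glp-1 and 15.4, 10.9 and 13.8 FPKM in WT. The WT libraries at D6 stood apart below all others, which lay between 10.1 and 15.4 FPKM. Its change with age was -2.36 (SE 0.13, adjusted p = 1.8e-08) in WT and -0.015, not called, in glp-1. Between genotypes it differed by 2.11 (SE 0.13, adjusted p = 2.5e-09) at D6, and at D1 it was -0.24 (SE 0.13, adjusted p = 0.1), and called without WT library 2 at D1 (-0.37, adjusted p = 0.017).

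acs-3 had 14.8, 15.3 and 14.3 FPKM in the glp-1 libraries at D6 and 3.196, 3.504 and 3.11 FPKM in WT at D6. At D1 acs-3 had 4.78, 4.65 and 4.64 FPKM in glp-1 and 9.67, 7.89 and 5.59 FPKM in WT. The 4 groups did not overlap, and glp-1 was the higher at D6 and the lower at D1. It was the one member whose genotype difference was called in opposite directions at the 2 ages: 1.89 (SE 0.15, adjusted p = 2.8e-08) at D6 and -0.59 (SE 0.15, adjusted p = 0.0019) at D1, and relative to intestine it was -0.27 at D6. It rose with age in glp-1 by 1.47 (SE 0.15, adjusted p = 2.6e-06) and its change in WT was -1.003 (SE 0.15, adjusted p = 8.8e-05), or 0.091 relative to intestine. acs-2, a mitochondrial synthetase induced by fasting through the nuclear receptor NHR-49, had 21.6, 17.2 and 24.1 FPKM in the glp-1 libraries at D6 and 4.87, 7.49 and 3.84 FPKM in WT at D6. At D1 acs-2 had 13.1, 9.42 and 12.8 FPKM in glp-1 and 22.3, 17.2 and 9.55 FPKM in WT. The glp-1 libraries lay above the WT libraries at D6, and the genotypes overlapped at D1. The genotype difference was 1.81 (SE 0.27, adjusted p = 3.5e-05) at D6 and -0.38 (SE 0.27, adjusted p = 0.2) at D1. Relative to intestine it was -0.45 at D6. Without WT library 3 at D1, its lowest there, the D1 difference was -0.70 and called, adjusted p = 0.013. Its rise with age in glp-1, 0.78 (SE 0.27, adjusted p = 0.029), was not called without glp-1 library 2 at D1 (0.64, adjusted p = 0.10), without glp-1 library 1 at D6 (0.75, adjusted p = 0.070), without glp-1 library 3 at D6 (0.68, adjusted p = 0.091) or with the median-ratio scaling (0.61, adjusted p = 0.076). acs-19, a homologue of acetyl-CoA synthetase, was among the synthetases of highest mean level. It had 168, 147 and 172 FPKM in the glp-1 libraries at D6 and 233, 224 and 222 FPKM in WT at D6. At D1 acs-19 had 202, 181 and 181 FPKM in glp-1 and 285, 249 and 265 FPKM in WT. The glp-1 libraries were the lower at each age with no overlap, by -0.48 (SE 0.07, adjusted p = 3.4e-05) at D6 and -0.499 (SE 0.07, adjusted p = 2.6e-05) at D1.

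**Figure D3:**
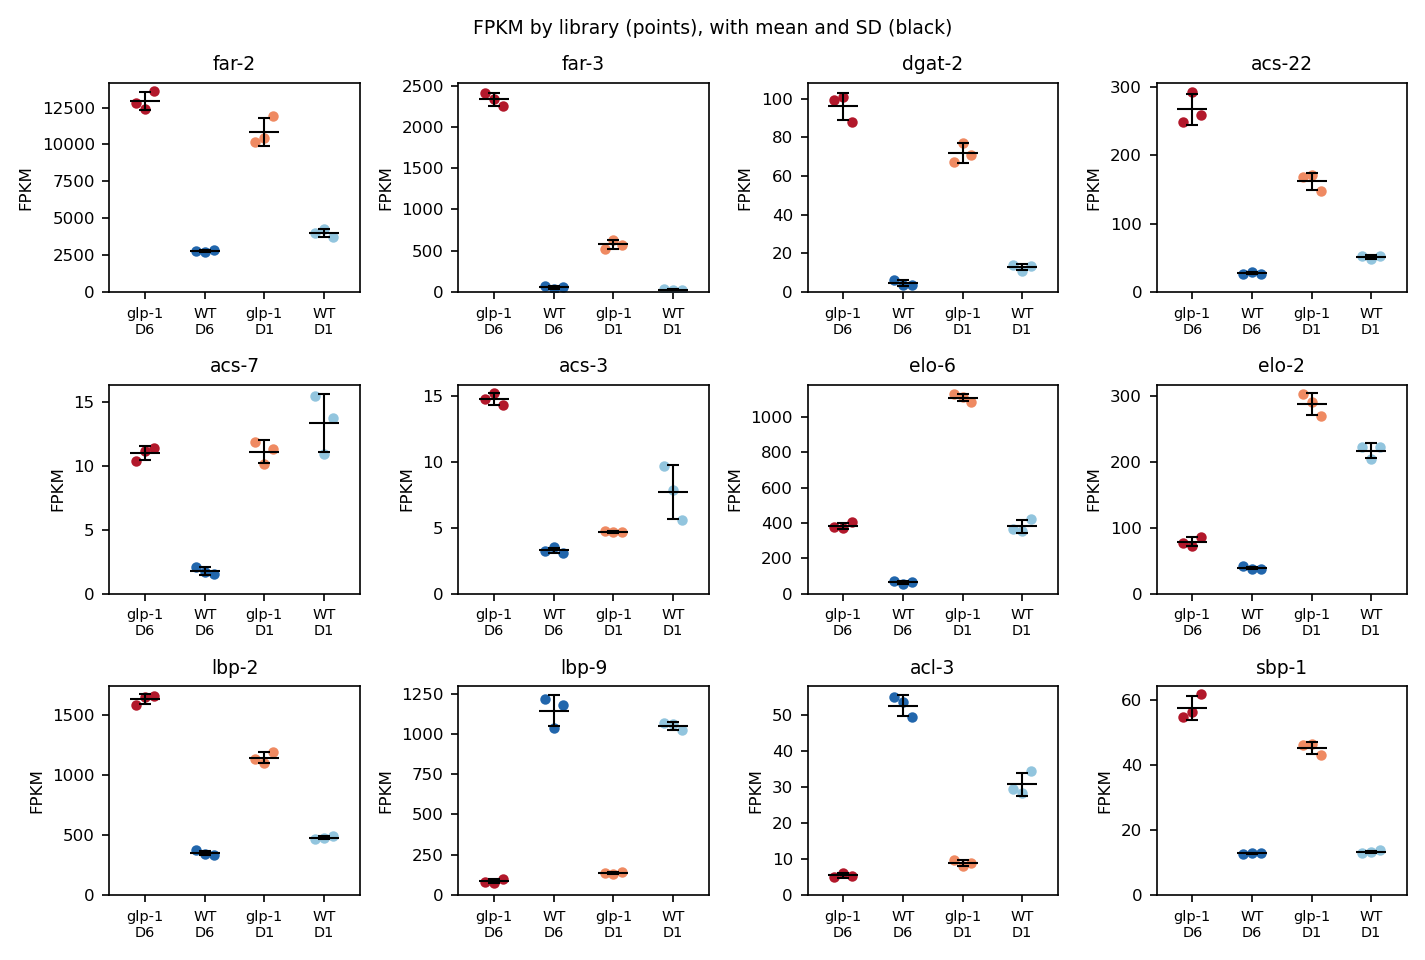
FPKM of 12 members by library (points) with mean and SD (black) in glp-1 at D6, WT at D6, glp-1 at D1 and WT at D1. acs-7 and dgat-2 are lowest in the WT libraries at D6, elo-6 and elo-2 are highest in glp-1 at D1, and lbp-9 and acl-3 are low in all glp-1 libraries.

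Of the 9 lipid binding proteins, 6 (66.7%) were higher in glp-1 at both ages and 2 (22.2%) lower. For all genes the shares were 44.4% and 45.4% at D6, and 41.3% and 48.1% at D1. Relative to intestine none of the 9 was higher and 6 were lower at D6, and 1 was higher and 4 lower at D1. Under that scaling, and under the muscle and neuron scaling, most called genes of the whole series were lower too. Scaled to muscle and neurons 6 of the 9 were higher and 3 lower at D6, and 3 higher and 3 lower at D1. With age 1 (11.1%) rose and 6 (66.7%) fell in glp-1, beside 39.1% and 15.6% of all genes. In WT none rose and 6 (66.7%) fell, beside 35.1% and 22.7% of all genes. But scaled to muscle and neurons 3 rose and 2 fell in WT, and scaled to intestine 6 rose and 2 fell. lbp-2, a carrier with a signal peptide, lies on chromosome X, bases 3260610 to 3261470, and had 1589, 1659 and 1664 FPKM in the glp-1 libraries at D6 and 374, 345 and 337 FPKM in WT at D6. At D1 lbp-2 had 1138, 1104 and 1195 FPKM in glp-1 and 467, 474 and 491 FPKM in WT. The 4 groups did not overlap. The log2 fold change of glp-1 over WT was 2.21 (SE 0.06, adjusted p = 4.4e-13) at D6 and 1.26 (SE 0.06, adjusted p = 9.5e-11) at D1. It rose with age in glp-1 by 0.52 (SE 0.06, adjusted p = 6e-06), while its change in WT was -0.44 (SE 0.06, adjusted p = 2.9e-05) as deposited and 0.27 relative to muscle and neurons. Relative to intestine the genotype difference was -0.26 at D6 and -0.16 at D1.

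lbp-9 went the other way and had 83.7, 77.5 and 102 FPKM in the glp-1 libraries at D6 and 1214, 1038 and 1181 FPKM in WT at D6. At D1 lbp-9 had 137, 130.5 and 144 FPKM in glp-1 and 1069, 1061 and 1023 FPKM in WT. Its mean in glp-1 was 7.68% of that in WT at D6 and 13.03% at D1, and no library of one genotype came near the other. The difference was -3.695 (SE 0.09, adjusted p = 4.1e-13) at D6 and -2.93 (SE 0.09, adjusted p = 3.5e-12) at D1. The median germline marker in a glp-1 library was at 0.142% to 1.09% of the WT mean at D6 and 0.0448% to 0.0692% at D1. The part of germline RNA in the lower level of lbp-9 was not tested. lbp-9 fell with age in glp-1 by 0.64 and its change in WT was 0.12, not called. lbp-4, the other lower member, was at 8.91 to 15.7 FPKM in glp-1 and 55.2 to 71.6 FPKM in WT at D6, and at 13.7 to 19.8 FPKM in glp-1 and 59.9 to 66.7 FPKM in WT at D1. lbp-8, which carries a lipid signal from lysosome to nucleus, was at 1.94 to 2.13 FPKM in glp-1 and 0 to 0.601 FPKM in WT at D6, and at 5.04 to 6.17 FPKM in glp-1 and 2.33 to 3.55 FPKM in WT at D1. The fall of lbp-8 with age was called in both genotypes under every scaling.

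The FAR family was higher in glp-1 throughout as deposited, with 8 of 8 genes called at each age, beside 44.4% of all genes higher at D6 and 41.3% at D1. Scaled to muscle and neurons 7 were higher at D6 and 6 at D1 with none lower, while scaled to intestine 2 were higher and 2 lower at D6, and 3 higher and 1 lower at D1. Among all called genes most were lower in glp-1 under both scalings. With age 5 (62.5%) rose and none fell in glp-1, beside 39.1% and 15.6% of all genes. In WT 4 (50%) rose and 2 (25%) fell, beside 35.1% and 22.7% of all genes. The 2 falls were absent after scaling to muscle and neurons or to intestine. far-2 and far-1, neighbours on chromosome III, held 84.4% of the FAR sum in glp-1 and 93.0% in WT at D6, and 92.9% in glp-1 and 95.97% in WT at D1. far-2, on chromosome III, bases 9081828 to 9082511, was the most abundant member and had 12798, 12386 and 13621 FPKM in the glp-1 libraries at D6 and 2763, 2712 and 2863 FPKM in WT at D6. At D1 far-2 had 10201, 10426 and 11951 FPKM in glp-1 and 3990.4, 4248 and 3718 FPKM in WT. The 4 groups kept apart, with glp-1 at D6 the highest and WT at D6 the lowest. The genotype difference was 2.22 (SE 0.07, adjusted p = 3.4e-12) at D6 and 1.44 (SE 0.07, adjusted p = 3.2e-10) at D1, and relative to intestine it was -0.26 and 0.022, neither of them called. Its rise with age in glp-1, 0.25 (SE 0.07, adjusted p = 0.0092), was not called with the median-ratio scaling (0.07, adjusted p = 0.52) or with library 2 alone for glp-1 at D6 (0.19, adjusted p = 0.15).

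far-1 had 4685, 4573 and 5023 FPKM in the glp-1 libraries at D6 and 849, 914 and 1002 FPKM in WT at D6. At D1 far-1 had 2275, 2429 and 2967 FPKM in glp-1 and 929, 1061 and 878 FPKM in WT. The glp-1 libraries were above the WT libraries at both ages and higher at D6 than at D1, while the WT libraries of both ages overlapped. The difference was 2.37 (SE 0.10, adjusted p = 4.9e-11) at D6 and 1.41 (SE 0.10, adjusted p = 1.5e-08) at D1, and with age it rose in glp-1 by 0.905 (SE 0.10, adjusted p = 7.9e-06). far-8 had 453, 461 and 543 FPKM in the glp-1 libraries at D6 and 88.4, 86.5 and 80.3 FPKM in WT at D6. At D1 far-8 had 198, 192 and 212 FPKM in glp-1 and 73.97, 64.4 and 65.7 FPKM in WT. The glp-1 libraries lay above the WT libraries at both ages. It rose with age in both genotypes, by 1.27 (SE 0.08, adjusted p = 4.1e-08) in glp-1 and 0.32 (SE 0.08, adjusted p = 0.0043) in WT, and the rise was the larger in glp-1 by 0.95 (SE 0.11, adjusted p = 2.8e-05), though the interaction was -0.11 relative to intestine. far-7 had 25.3, 25.96 and 34.4 FPKM in the glp-1 libraries at D6 and 9.51, 16.3 and 11.1 FPKM in WT at D6. At D1 far-7 had 35.3, 27.9 and 31.1 FPKM in glp-1 and 9.58, 3.28 and 7.78 FPKM in WT. The glp-1 libraries were above the WT libraries at both ages. Its difference was 1.17 (SE 0.29, adjusted p = 0.002) at D6 and 2.13 (SE 0.29, adjusted p = 1.6e-05) at D1, but relative to muscle and neurons it was -0.100 at D6. Its rise with age in WT, 0.82 (SE 0.29, adjusted p = 0.029), was not called without WT library 2 at D1 (0.43, adjusted p = 0.092), without WT library 2 at D6 (0.61, adjusted p = 0.11) or without WT library 3 at D6 (0.87, adjusted p = 0.051).

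far-3 showed the largest genotype difference of the 62 members at both ages. The gene lies on chromosome V, bases 12996787 to 12997522, and had 2409.8, 2336 and 2249.6 FPKM in the glp-1 libraries at D6 and 68.8, 36.003 and 63.005 FPKM in WT at D6. At D1 far-3 had 521, 635 and 573 FPKM in glp-1 and 31.99, 29.4 and 26.8 FPKM in WT. The glp-1 mean was 41.7 times the WT mean at D6 and 19.6 times at D1. The difference was 5.41 (SE 0.18, adjusted p = 1.7e-11) at D6 and 4.25 (SE 0.18, adjusted p = 2.3e-10) at D1, and relative to intestine it was still 2.95 and 2.84, both called. It rose with age by 2.02 (SE 0.18, adjusted p = 2.2e-06) in glp-1 and 0.86 (SE 0.18, adjusted p = 0.002) in WT, and the rise in glp-1 was the larger by 1.16 (SE 0.26, adjusted p = 0.0034). The WT libraries at D6 were also the more spread, at 36.003 to 68.8 FPKM. far-3 and far-5 overlap by 50 bases on opposite strands, and it is unknown whether the counting used strand, so fragments from the overlap may be shared. far-5 was at 31.4 to 37.9 FPKM in glp-1 and 3.23 to 5.49 FPKM in WT at D6, and at 24.7 to 34.4 FPKM in glp-1 and 5.08 to 7.11 FPKM in WT at D1.

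Of the 14 acyltransferases 8 (57.1%) were lower and 5 (35.7%) higher in glp-1 at each age, beside 45.4% lower and 44.4% higher of all genes at D6 and 48.1% lower and 41.3% higher at D1. Without acl-13, which reached 1 FPKM only in WT at D1, 7 of 13 were lower at D1. After scaling to muscle and neurons 10 were lower and 2 higher at each age, and scaled to intestine 11 were lower and 2 higher at D6, and 12 lower and 2 higher at D1. Most called genes of the whole series were lower too, as both scalings lower all glp-1 values. With age 8 (57.1%) rose and 5 (35.7%) fell in glp-1, beside 39.1% and 15.6% of all genes. In WT 6 (42.9%) rose and 5 (35.7%) fell, beside 35.1% and 22.7% of all genes. There scaling to muscle and neurons gave 10 that rose and 3 that fell, and scaling to intestine 11 and 1. The falls in WT include acl-13 under each scaling, and it was the 1 that fell relative to intestine. Its fall is set by the limit of 1 FPKM. The rises in glp-1 as deposited include acl-13 too. dgat-2, of the last step of triglyceride synthesis, lies on chromosome V, bases 17660303 to 17661810. It had 99.4, 101 and 87.9 FPKM in the glp-1 libraries at D6 and 6.201, 3.62 and 3.55 FPKM in WT at D6. At D1 dgat-2 had 67.1, 77.2 and 70.7 FPKM in glp-1 and 14.01, 11.02 and 13.5 FPKM in WT. The glp-1 libraries lay above the WT libraries at both ages, and the glp-1 mean was 21.5 times the WT mean at D6 and 5.58 times at D1. The difference was 4.18 (SE 0.15, adjusted p = 1.2e-11) at D6 and 2.397 (SE 0.15, adjusted p = 5e-09) at D1, higher under each scaling. Its change with age was -1.37 (SE 0.15, adjusted p = 1e-05) in WT and 0.42 (SE 0.15, adjusted p = 0.036) in glp-1. The rise in glp-1 was not called with the median-ratio scaling (0.23, adjusted p = 0.26), with a pseudocount of 0.1 (adjusted p = 0.069), with no filter (adjusted p = 0.056), with no trend or robust step (adjusted p = 0.051) or with library 2 alone for glp-1 at D6 (0.49, adjusted p = 0.12). It was also not called without glp-1 library 1 at D1 (0.37, adjusted p = 0.11), without glp-1 library 3 at D1 (0.41, adjusted p = 0.084), without glp-1 library 1 at D6 (0.39, adjusted p = 0.092) or without glp-1 library 2 at D6 (0.38, adjusted p = 0.095). The interaction, 1.79 (SE 0.22, adjusted p = 3.4e-05), was called under every scaling.

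acl-12 had 191, 223 and 212 FPKM in the glp-1 libraries at D6 and 23.6, 24.7 and 24.1 FPKM in WT at D6. At D1 acl-12 had 108, 106 and 91.5 FPKM in glp-1 and 12.5, 12.1 and 12.2 FPKM in WT. No groups overlapped, and each genotype was higher at D6 than at D1. The log2 fold change of glp-1 over WT was 3.05 (SE 0.08, adjusted p = 3.9e-13) at D6 and 2.95 (SE 0.08, adjusted p = 6.6e-13) at D1, and the rise with age was 1.03 (SE 0.08, adjusted p = 1.7e-07) in glp-1 and 0.92 (SE 0.08, adjusted p = 6e-07) in WT, the genotype differences being called under each scaling. The interaction of 0.101 was not called. acl-4, a glycerol-3-phosphate acyltransferase of the endoplasmic reticulum, had 63.6, 67.1 and 69.7 FPKM in the glp-1 libraries at D6 and 43.02, 45.6 and 44.9 FPKM in WT at D6. At D1 acl-4 had 87.001, 87.8 and 79.5 FPKM in glp-1 and 52.3, 51.8 and 59.6 FPKM in WT. The groups did not overlap. It was higher in glp-1 by 0.58 at D6 and 0.63 at D1, but relative to muscle and neurons the differences were -0.75 and -0.28. acl-7, which starts the synthesis of ether lipids in the peroxisome, had 27.3, 30.03 and 30.7 FPKM in the glp-1 libraries at D6 and 10.03, 13.1 and 11.3 FPKM in WT at D6. At D1 acl-7 had 22.6, 18.4 and 20.3 FPKM in glp-1 and 17.7, 14.7 and 13.1 FPKM in WT. The genotypes did not overlap at either age. It was higher in glp-1 by 1.29 (SE 0.12, adjusted p = 2.4e-07) at D6 and 0.41 (SE 0.12, adjusted p = 0.0062) at D1, and the D1 difference was -0.45 relative to muscle and neurons. Its fall with age in WT, -0.37 as deposited, was not called without WT library 1 at D1 (-0.26, adjusted p = 0.091) or without WT library 1 at D6 (-0.29, adjusted p = 0.084).

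The acyltransferases lower in glp-1 included the 2 members with a known mitochondrial role. acl-3, the homologue of tafazzin, which remodels cardiolipin, lies on chromosome IV, bases 11650715 to 11652023. It had 4.86, 6.16 and 5.26 FPKM in the glp-1 libraries at D6 and 54.8, 53.4 and 49.2 FPKM in WT at D6. At D1 acl-3 had 9.65, 8.02 and 8.89 FPKM in glp-1 and 29.3, 28.4 and 34.3 FPKM in WT. The glp-1 libraries were below the WT libraries at both ages, and the change with age was -0.62 (SE 0.11, adjusted p = 0.00027) in glp-1 and 0.76 (SE 0.11, adjusted p = 5.9e-05) in WT. The fall of acl-3 in glp-1 was not called with the muscle and neuron scaling. Between genotypes it differed by -3.06 (SE 0.11, adjusted p = 5.7e-12) at D6 and -1.68 (SE 0.11, adjusted p = 3.6e-09) at D1. acl-6, the mitochondrial glycerol-3-phosphate acyltransferase, had 11.1, 11.3 and 12.5 FPKM in the glp-1 libraries at D6 and 83.9, 78.4 and 75.8 FPKM in WT at D6. At D1 acl-6 had 22.4, 21.2 and 20.6 FPKM in glp-1 and 62.2, 59.8 and 60.8 FPKM in WT. Every glp-1 library lay below every WT library, with a log2 fold change of -2.67 (SE 0.07, adjusted p = 4.9e-13) at D6 and -1.47 (SE 0.07, adjusted p = 1.6e-10) at D1. It too fell with age in glp-1, by 0.83, and rose in WT by 0.37, and the fall in glp-1 was called under every scaling. acl-2, a homologue of lysophosphatidic acid acyltransferases, had 15.05, 16.4 and 18.9 FPKM in the glp-1 libraries at D6 and 77.98, 72.2 and 71.01 FPKM in WT at D6. At D1 acl-2 had 62.7, 62.6 and 45.4 FPKM in glp-1 and 69.2, 58.1 and 82.3 FPKM in WT. The glp-1 libraries at D6 lay below all others. The genotype difference was -2.08 (SE 0.14, adjusted p = 6.3e-09) at D6 and -0.29 (SE 0.14, adjusted p = 0.063) at D1, where it was called without WT library 2 at D1 (-0.42, adjusted p = 0.015), without glp-1 library 1 at D1 (-0.37, adjusted p = 0.041) or without glp-1 library 2 at D1 (-0.37, adjusted p = 0.042). Its change with age was -1.69 (SE 0.14, adjusted p = 4.9e-07) in glp-1 and 0.089, not called, in WT. The germline markers were lower in glp-1 in all 16 cases at both ages, and the part of germline RNA in the lower level of these genes was not tested.

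Across all classes, 9 members fell with age in WT and rose in glp-1, namely acs-2, acs-3, acs-14, acs-22, dgat-2, acl-7, acl-13, far-2 and lbp-2, and acl-3 and acl-6 did the reverse. As single changes, 22.7% of all genes fell and 35.1% rose in WT, and 39.1% rose and 15.6% fell in glp-1. The share of all genes with both opposite calls was not computed, so these counts do not show whether the members differ from other genes. The 9 became 3 (acs-2, acs-3 and dgat-2) with the muscle and neuron scaling, 0 with the intestine scaling and 6 with the median-ratio scaling, and 5 (acs-3, acs-14, acs-22, acl-7 and lbp-2) when library 2 alone stood for glp-1 at D6. Leaving out 1 library left 7 to 9 of them. The other pair became 3 with muscle and neurons (acl-2, acl-6 and lbp-9) and 6 with intestine. The direct test of the difference between the 2 changes was positive and called under every scaling for acs-2, acs-3, acs-7, acs-22 and dgat-2. It was so too for acs-10, acs-18 and acl-13, whose fall in WT is set by the limit of 1 FPKM, which they reached only in WT at D1. The same holds in large part for acs-6, also positive and called. It had 2.03, 1.76 and 1.18 FPKM in WT at D1 and elsewhere reached 1 FPKM only in glp-1 library 3 at D1 (1.19 FPKM). As deposited it was negative for acs-11, acs-13, acl-2, acl-3, acl-6, elo-1 and lbp-9, and both tissue scalings move all genes in that direction. With muscle and neurons the interaction was positive in 20 members and negative in 16, and with intestine in 9 and 29.

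**Figure D4:**
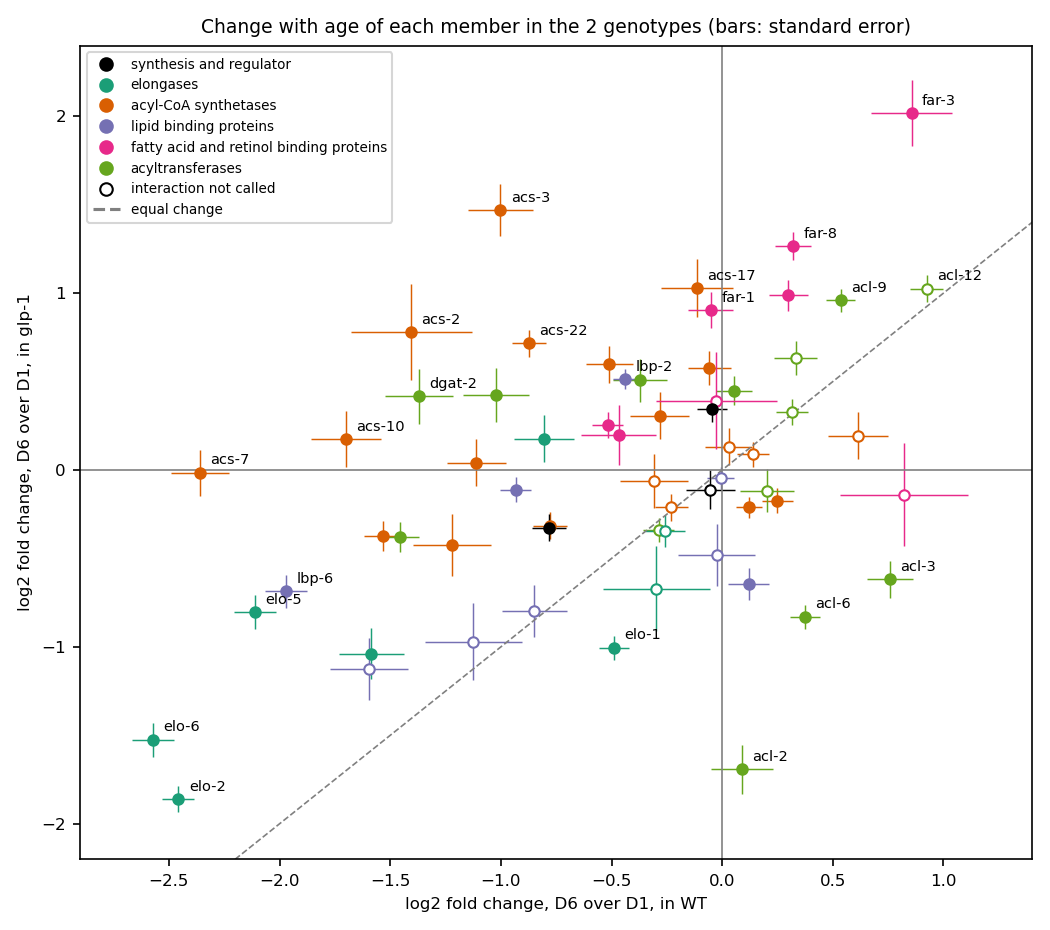
The log2 fold change of D6 over D1 in glp-1 (vertical) against that in WT (horizontal) for the 62 members, with bars for the standard error, colours for the class and open symbols where the interaction was not called. Most elongases lie in the lower left, acs-3, acs-2, acs-22 and dgat-2 in the upper left, and acl-3 and acl-6 in the lower right, on FPKM as deposited, while with the intestine scaling no member fell in WT and rose in glp-1.

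acs-10, acs-18, acl-13 and elo-8 were near the limit of 1 FPKM in the group that brought them onto the list and lower elsewhere. acs-10 had 0.197, 0.0293 and 0.4295 FPKM in the glp-1 libraries at D6 and 0.218, 0.178 and 0.311 FPKM in WT at D6. At D1 acs-10 had 0, 0.124 and 0.0907 FPKM in glp-1 and 3.901, 2.87 and 2.41 FPKM in WT. elo-8 was at 1.22 to 1.71 FPKM in WT at D1 and at most 0.446 FPKM elsewhere. acl-13 had 0.246, 0.214 and 0.6701 FPKM in the glp-1 libraries at D6 and 0, 0.186 and 0.338 FPKM in WT at D6. At D1 acl-13 had 0.0458, 0 and 0 FPKM in glp-1 and 1.501, 1.34 and 1.27 FPKM in WT. Its rise with age in glp-1, 0.42 (SE 0.15, adjusted p = 0.029), rests on values under 1 FPKM and was not called without glp-1 library 3 at D6 (0.28, adjusted p = 0.13) or without any 1 of the 3 glp-1 libraries at D1 (adjusted p = 0.053 to 0.073). acs-18 was at 1.14 to 1.72 FPKM in WT at D1 and 0 to 0.319 FPKM in the other libraries, and was listed at 0 in all glp-1 libraries at D1. Sperm markers were also highest in that group: 11 of 14 were higher in every WT library at D1 than in any other library, and their sum was 20.8 to 35.8 FPKM in glp-1 and 11.3 to 23.02 FPKM in WT at D6, and 18.7 to 22.5 FPKM in glp-1 and 258 to 349 FPKM in WT at D1. Their part in the level of these 4 members was not tested. The names elo-7 and acs-15 fell just outside the list. elo-7 reached 0.818 to 1.03 FPKM in WT at D1 and at most 0.0605 FPKM elsewhere, and acs-15 reached at most 0.552 FPKM. Just inside it were acs-9, with 0.583 to 1.41 FPKM over all 12 libraries, and acs-6, with 0.0581 to 2.03 FPKM.

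Of 30 other genes of fatty acid and fat metabolism, 29 were found by name and 28 were tested. In glp-1 against WT 12 (42.9%) were higher and 13 (46.4%) lower at D6, close to the 44.4% and 45.4% of all genes. At D1 12 (42.9%) were higher and 9 (32.1%) lower, beside 41.3% and 48.1% of all genes. Scaled to intestine 1 was higher and 23 lower at D6, and 2 were higher and 24 lower at D1, as most called genes of the whole series were lower. With age 7 (25%) rose and 12 (42.9%) fell in glp-1, beside 39.1% and 15.6% of all genes. In WT 7 (25%) rose and 14 (50%) fell, beside 35.1% and 22.7% of all genes, and scaling to intestine gave 25 that rose and 3 that fell. The other enzymes of the elongation cycle, let-767, hpo-8 and art-1, fell with age in both genotypes as deposited, and in glp-1 under both tissue scalings, while in WT all 3 rose relative to intestine. let-767, the ketoacyl reductase, was at 162, 160.4 and 171 FPKM in glp-1 and 132, 125 and 129 FPKM in WT at D6, and at 500.1, 486 and 485 FPKM in glp-1 and 286, 259.8 and 259 FPKM in WT at D1. Its change with age was -1.57 (SE 0.05, adjusted p = 3.1e-10) in glp-1 and -1.05 (SE 0.05, adjusted p = 1.1e-08) in WT. Of the coactivator mdt-15 and the receptor nhr-49, which regulate fat genes with sbp-1 or beside it, neither was called between genotypes at either age, with differences of 0.03 for mdt-15 and 0.08 for nhr-49 at D6 and -0.08 and 0.19 in that order at D1, though both were lower in glp-1 after scaling to muscle and neurons or to intestine. nhr-80, another nuclear receptor of fat metabolism, was higher in glp-1 by 2.08 (SE 0.11, adjusted p = 5e-10) at D6 and 1.29 (SE 0.11, adjusted p = 1e-07) at D1, and relative to intestine its differences were -0.16 and -0.018, neither called.

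On lipid droplets, dhs-3, a coat protein of intestinal droplets, was higher in glp-1 by 3.21 (SE 0.11, adjusted p = 8.5e-12) at D6 and 2.67 (SE 0.11, adjusted p = 7e-11) at D1, while atgl-1, the adipose triglyceride lipase homologue, was lower, at -1.89 (SE 0.10, adjusted p = 5.4e-10) and -0.94 (SE 0.10, adjusted p = 1.2e-06), the first difference holding under every scaling. Of the phosphatidylcholine genes, sams-1, which makes the methyl donor, was at 43.5, 45.5 and 45.9 FPKM in glp-1 and 11.7, 18.7 and 15.7 FPKM in WT at D6, and at 131, 128 and 132 FPKM in glp-1 and 183, 204 and 169 FPKM in WT at D1. The glp-1 libraries were the higher at D6 and the lower at D1, by 1.51 (SE 0.12, adjusted p = 4.9e-08) and -0.498 (SE 0.12, adjusted p = 0.0019), whereas relative to intestine they were lower at D6 too (-0.88). Its change with age was -1.52 (SE 0.12, adjusted p = 4.1e-07) in glp-1 and -3.53 (SE 0.12, adjusted p = 3.8e-10) in WT.

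**Figure D5:**
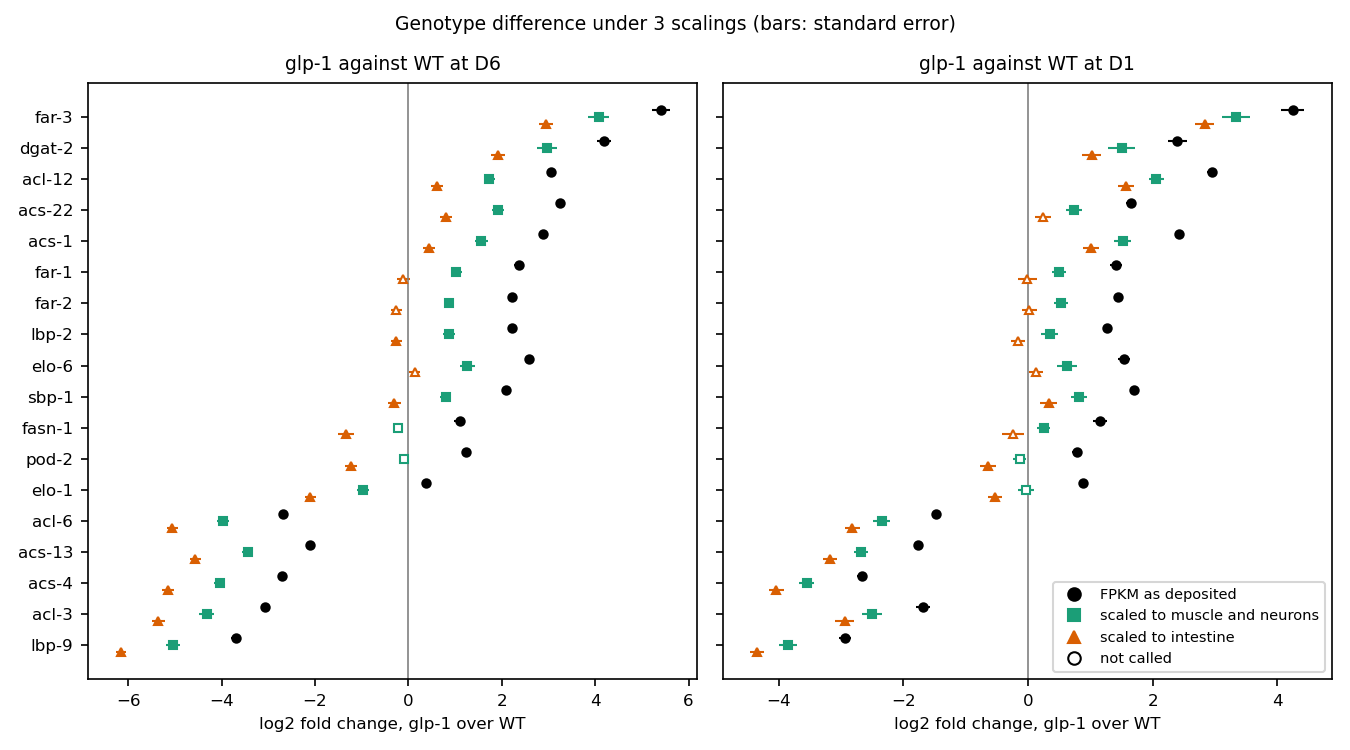
The log2 fold change of glp-1 over WT at D6 (left) and D1 (right) for 18 members, with FPKM as deposited (black circles), scaled to muscle and neuron markers (green squares) and scaled to intestine markers (orange triangles), bars for the standard error and open symbols where not called. far-3, dgat-2, acl-12 and acs-1 stay right of 0 and acl-6, acs-13, acs-4, acl-3 and lbp-9 stay left of 0 under all 3, while far-1, far-2, lbp-2 and pod-2 cross 0 or come close to it with the intestine scaling.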

How the data were processed

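RNA of whole worms was sequenced in 12 libraries, 3 in each of 4 groups taken from the sample labels. Each deposited file holds an FPKM value for every gene, as the authors derived it. Build WBcel235 and the tools HISAT2 2.0.4 and DESeq2 1.6.3 come from the submitters' processing notes. The sources used here do not name the program, annotation or strand setting behind the FPKM. Depth was estimated from the smallest steps of FPKM in single-transcript genes, and no counting intervals were computed, as FPKM holds no counts.

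The values were used as deposited on the log2(FPKM + 1) scale, which understates changes of low genes. Genes with at least 1 FPKM in 3 or more libraries (13614) were fitted with limma 3.58.1 in R 4.3.3, with 1 mean per group over all 12 libraries, a trend of the variance and robust moderation, and tested on simulated data. P-values are two-sided, Benjamini-Hochberg adjusted over all genes tested, and called under 0.05.

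Members given library by library were pod-2, fasn-1, sbp-1, dgat-2, the 2 most abundant members of each family, the 3 largest called rises and falls in each comparison, and those called in opposite directions between ages or genotypes. These were 31. A few others are given by their levels and were chosen after their values were seen. The members, lists and alternatives were chosen with earlier results of these data known. Alternatives were 3 scalings, a pseudocount of 0.1, no filter, a filter at 5 FPKM, no trend or robust step, the compared groups alone, a replicate block, each library left out, and, added after seeing the data, library 2 alone for glp-1 at D6. Exons of 21 members overlap a coding gene on the other strand (among those named acs-1, acs-7, acs-22, acl-2, acl-4, acl-6, acl-7, dgat-2, far-3, lbp-9, pod-2 and sbp-1) and those of 3 overlap one on the same strand (acs-13, acl-11 and acl-13), so their values are less certain. Promoter and protein sequences were not used here.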

Additional observations from a re-analysis of the deposited data

Results flagged for a closer look

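The change between D1 and D6 differed between glp-1 and WT, by the interaction test of limma at an adjusted p under 0.05, in 25 of the 31 members described library by library, beside 47.5% of all genes tested. Some of the 31 were chosen for this value or for opposite changes with age, so their count says nothing beyond that choice, and the values in this paragraph are the log2 change in glp-1 minus that in WT. All of these values rest on FPKM as deposited. The largest positive values were those of acs-3 (2.47), acs-7 (2.35), acs-2 (2.19), acs-10 (1.88), dgat-2 (1.79), acs-22 (1.59) and acl-13 (1.45). These 7 kept a positive and called value under each of the 3 other scalings, but acs-10 and acl-13 reached 1 FPKM only in WT at D1, which fixes their fall in WT. Values between these and 0.6 were found for far-3 (1.16), acs-14 (1.11), elo-6 (1.05), far-1 (0.96), lbp-2 (0.95), far-8 (0.95), acl-7 (0.88) and far-2 (0.77). Smaller positive values were found for elo-2 (0.60), acs-1 (0.46), pod-2 (0.46) and sbp-1 (0.39). None of the last 12 was positive and called under all 3 other scalings. The tissue scalings move all genes toward negative values. Negative values as deposited were found for acl-2 (-1.78), acl-3 (-1.38), acl-6 (-1.20), lbp-9 (-0.76), elo-1 (-0.52) and acs-13 (-0.33).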

How the results depend on the processing

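Scaling moved the results most. With the muscle and neuron scaling the members called higher in glp-1 were 21 at D1, those called lower at D6 were 23, and with age 29 rose and 17 fell in WT, 12 fell in glp-1, and the interaction was positive in 20 and negative in 16. With the intestine scaling 8 were higher and 35 lower in glp-1 at D6, 9 were higher and 35 lower at D1, 42 rose and 11 fell with age in WT, 13 fell in glp-1, and the interaction was positive in 9 and negative in 29. With the median-ratio scaling the interaction was negative in 13. In all other settings each count stayed within 1.5 times its value as deposited. Among all called genes the share higher was, as deposited, with muscle and neurons and with intestine in that order, 71.4%, 84.7% and 83.5% for age in glp-1, 60.7%, 85.7% and 91.9% for age in WT, and 65.0%, 30.0% and 9.88% for the interaction, and with the median-ratio scaling 56.8% for age in glp-1 and 48.8% for the interaction.

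Sign changes were counted only where the value was called as deposited, in the other setting or in both. Of 155 log2 values of named members, 24 changed sign in this sense with the muscle and neuron scaling. For glp-1 against WT at D6 they were acl-4 -0.75, elo-1 -0.97, elo-2 -0.32, far-7 -0.100, fasn-1 -0.22 and pod-2 -0.101. At D1 they were acl-4 -0.28, acl-7 -0.45, elo-1 -0.029, elo-2 -0.51 and pod-2 -0.13. For age in glp-1 they were acs-13 0.066 and acs-19 0.067, and in WT acl-4 0.41, acl-7 0.29, acs-14 0.18, acs-19 0.48, elo-1 0.22, far-1 0.66, far-2 0.19, fasn-1 0.64, lbp-2 0.27 and sbp-1 0.63. For the interaction it was sbp-1 -0.016. With the intestine scaling 50 changed sign, counted the same way. For glp-1 against WT at D6 they were acl-4 -1.86, acl-7 -1.07, acs-14 -0.204, acs-2 -0.45, acs-3 -0.27, elo-1 -2.099, elo-2 -1.44, far-1 -0.11, far-2 -0.26, far-7 -1.19, fasn-1 -1.34, lbp-2 -0.26, pod-2 -1.22 and sbp-1 -0.299. At D1 they were acl-4 -0.77, acl-7 -0.92, acs-14 -0.28, elo-1 -0.53, elo-2 -1.01, far-1 -0.0085, fasn-1 -0.24, lbp-2 -0.16 and pod-2 -0.64. For age in glp-1 they were acs-13 0.038 and acs-19 0.038, and in WT acl-4 1.003, acl-7 0.87, acs-1 0.51, acs-14 0.76, acs-19 1.07, acs-22 0.402, acs-3 0.091, elo-1 0.81, far-1 1.25, far-2 0.79, fasn-1 1.23, lbp-2 0.86, pod-2 0.51 and sbp-1 1.21. For the interaction they were acl-12 -0.95, acl-7 -0.15, acs-1 -0.57, acs-19 -1.03, elo-2 -0.43, far-1 -0.098, far-2 -0.28, far-8 -0.11, lbp-2 -0.099, pod-2 -0.59 and sbp-1 -0.63. By this count none changed sign under any other setting, while sign changes of values called in neither fit were not counted. The cause of the sign changes was not tested beyond the shift of all genes that these scalings bring.

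Leaving out 1 library in turn gave 39 to 40 members higher and 14 to 15 lower in glp-1 at D6, 37 higher in each case and 18 to 20 lower at D1, 19 to 21 rising and 20 to 24 falling with age in glp-1, 10 to 12 rising and 29 to 32 falling in WT, and an interaction positive in 33 to 35 and negative in 7 to 8. Of 1860 named values so recomputed, 20 lost their call and 7 gained one. acs-19 lost its fall with age in WT without WT library 1 at D1 or WT library 3 at D6, and its fall in glp-1 without glp-1 library 1 at D1 or glp-1 library 2 at D6. far-7 gained an interaction of -1.22 without WT library 1 at D1, and acs-4 a rise of 0.17 in glp-1 without glp-1 library 2 at D6.

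With the replicate number as a block 39 members were higher and 14 lower in glp-1 at D6, 37 higher and 18 lower at D1, 21 rose and 24 fell in glp-1, 12 rose and 32 fell in WT, and the interaction was positive in 34 and negative in 7, and no named call changed. Same-numbered libraries of 2 groups correlated at -0.14 to 0.15 in their deviations over 18 pairs, 1 of them over 0.1, so the numbers give no pairing. The fit on only the compared groups has no form for the interaction. FPKM holds no counts, so levels under about 1 FPKM are the least certain, and gene copies and strand could not be examined.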

Other observations

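Neighbouring members did not always move together. The genes lbp-1, lbp-2 and lbp-3 lie on the same strand of chromosome X, 798 bases (lbp-1 to lbp-2) and 987 bases (lbp-1 to lbp-3) apart. lbp-1 had 101, 96.1 and 107 FPKM in the glp-1 libraries at D6 and 107, 105 and 102 FPKM in WT at D6. At D1 lbp-1 had 102, 101 and 111 FPKM in glp-1 and 106, 110.2 and 99.6 FPKM in WT. It varied least of all 62 members, with a coefficient of variation of 4.24% over the 12 libraries, and no comparison called it as deposited. lbp-2 and lbp-3 on its sides were both higher in glp-1 at both ages, and lbp-3 had 132, 142 and 156 FPKM in the glp-1 libraries at D6 and 40.3, 39.2 and 43.2 FPKM in WT at D6. At D1 lbp-3 had 156, 148 and 159.7 FPKM in glp-1 and 83.5, 76.5 and 77.03 FPKM in WT. As a share of RNA lbp-1 was therefore level, and relative to intestine markers its difference was -2.503 at D6 and -1.41 at D1. elo-3 was the member of next smallest variation, at 13.2%.

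acl-8 and acl-9, which lie 107 bases apart on one strand of chromosome V and encode acyltransferases of phosphatidylinositol, were both lower in glp-1 than in WT at both ages but differed with age. acl-8 averaged 23.5 ± 1.24 FPKM in glp-1 and 50.5 ± 2.78 FPKM in WT at D6, and 16.9 ± 0.861 FPKM in glp-1 and 48.7 ± 4.76 FPKM in WT at D1. acl-9 averaged 48.8 ± 1.51 FPKM in glp-1 and 96.7 ± 4.05 FPKM in WT at D6, and 24.6 ± 1.38 FPKM in glp-1 and 66.4 ± 4.04 FPKM in WT at D1 (SD, n = 3 each). With age acl-8 rose by 0.45 and acl-9 by 0.96 in glp-1, and in WT the change was 0.054, not called, for acl-8 and 0.54, called, for acl-9. The pair was chosen after its values were seen.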
